A study of Drosophila melanogaster with 3 samples.

Results

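The sites described here are the intronic binding sites of CG13894 that lay close to, but not at, a transcription start site (TSS) in *Drosophila melanogaster* embryos. They are the peak summits, the single base of strongest enrichment in each peak, that fell inside a transcript of a protein-coding gene, outside every annotated exon, and more than 500 and up to 2000 bp from the nearest annotated TSS of any gene. Position alone chose them, and 1012 of the 7434 summits (13.6%) of the deposited list met the rule. Applied to the 7434 strongest peaks of each replicate, the same rule gave 968, 997 and 1028 summits in replicates 1, 2 and 3, a share of 13.4% ± 0.404 (SD, n = 3).

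The data came from chromatin immunoprecipitation and sequencing (ChIP-seq), which maps the DNA that a protein lies on. The labels describe 1 group: whole embryos of 2 to 24 h from a transgenic line that stably carries CG13894 fused at its C-terminus to green fluorescent protein (GFP), precipitated through the GFP, with 3 biological replicates. There was no untagged or other control group among the analysed samples, all replicates came from 1 fly line, and whole embryos mix all cell types, so a weak site in every cell and a strong site in a few cells cannot be told apart. The list analysed here, called the thresholded list, holds the peaks that the authors kept after a threshold on the irreproducible discovery rate, a measure of how well peak ranks repeat between replicates. No deposited peak list gives read counts, and library depth is therefore not known here. The 1012 summits lay in 963 separate regions, and 113 of them shared a region with another summit.

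An intron near a promoter is a common place for regulatory DNA in flies. Genes often carry several alternative promoters, so sequence that is intronic for a long transcript can lie upstream of the start of a shorter one. First introns tend to be long and often hold enhancers, short stretches of DNA that bind transcription factors and raise transcription from a promoter at a distance. GAGA factor, encoded by Trl, is a well-known fly protein of promoters and enhancers that binds GA-rich DNA, and Grainyhead is a transcription factor of epithelia.

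Each line below gives 121 bp of the reference genome (Release 6, dm6, plus strand) centred on a summit, shown because these are the strongest sites whose sequence is printed here. Capitals mark the words ACAGTGG and GAGAG, read on either strand, whose shares are given further on, and lines without capitals hold neither. The host gene comes first.

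CG13894 (chr3L:697834-697954): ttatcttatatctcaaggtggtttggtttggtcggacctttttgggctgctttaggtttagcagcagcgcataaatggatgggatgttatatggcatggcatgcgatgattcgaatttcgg
klar (chr3L:510959-511079): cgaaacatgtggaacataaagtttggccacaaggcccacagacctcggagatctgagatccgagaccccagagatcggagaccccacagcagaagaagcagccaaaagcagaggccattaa
CG11050 (chr2L:6612643-6612763): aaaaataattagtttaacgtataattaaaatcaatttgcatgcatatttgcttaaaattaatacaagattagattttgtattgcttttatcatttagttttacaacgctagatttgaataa
ush (chr2L:481009-481129): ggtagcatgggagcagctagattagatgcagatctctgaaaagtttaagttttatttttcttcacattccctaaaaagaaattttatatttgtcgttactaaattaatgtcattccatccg
CG9663 (chr2L:3302107-3302227): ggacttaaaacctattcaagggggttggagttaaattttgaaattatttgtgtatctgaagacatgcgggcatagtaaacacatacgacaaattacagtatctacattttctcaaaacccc
Lk6 (chr3R:11761006-11761126): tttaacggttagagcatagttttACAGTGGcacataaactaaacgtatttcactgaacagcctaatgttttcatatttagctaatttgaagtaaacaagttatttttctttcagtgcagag

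The letter content of these windows ranged widely. GC content was 19.8% at CG11050 and 52.9% at klar, and the single match among the 6 windows was the ACAGTGG of Lk6.

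The 5 lines that follow are the strongest summits on 3L, 3R and 4 after Lk6 with ACAGTGG within 60 bp, shown because that word led the ranking on the other arms described further on. It reads CCACTGT on the other strand, as at stv and CG11357. These genes were picked by their sequence, outside the rule for named genes.

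Mkp3 (chr3L:19071468-19071588): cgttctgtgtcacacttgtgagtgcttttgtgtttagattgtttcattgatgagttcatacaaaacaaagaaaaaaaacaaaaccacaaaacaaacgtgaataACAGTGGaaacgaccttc
nudC (chr3L:16806246-16806366): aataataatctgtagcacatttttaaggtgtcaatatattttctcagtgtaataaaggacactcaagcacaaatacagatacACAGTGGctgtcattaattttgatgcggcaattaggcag
Zip71B (chr3L:14992981-14993101): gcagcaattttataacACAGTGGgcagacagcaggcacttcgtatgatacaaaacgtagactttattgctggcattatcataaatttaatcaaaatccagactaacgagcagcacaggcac
stv (chr3L:13479624-13479744): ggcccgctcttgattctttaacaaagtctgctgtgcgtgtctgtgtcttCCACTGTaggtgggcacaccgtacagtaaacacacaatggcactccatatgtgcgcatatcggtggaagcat
CG11357 (chr3L:4543296-4543416): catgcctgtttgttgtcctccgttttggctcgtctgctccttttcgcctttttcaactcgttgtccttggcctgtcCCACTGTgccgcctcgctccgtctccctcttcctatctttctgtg

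The last 3 lines are the strongest summits with a GA repeat of at least 8 letters within 60 bp, again picked by sequence. They show the element in its long form, where it reads CT on the printed strand at CG14434 and inaE.

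CG14434 (chrX:6866153-6866273): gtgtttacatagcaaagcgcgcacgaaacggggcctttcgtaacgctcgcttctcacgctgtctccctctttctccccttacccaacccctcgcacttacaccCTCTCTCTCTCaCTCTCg
SNF4Agamma (chr3R:21187594-21187714): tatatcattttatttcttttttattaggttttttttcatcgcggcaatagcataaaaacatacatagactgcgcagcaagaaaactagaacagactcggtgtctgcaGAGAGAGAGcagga
inaE (chrX:13792577-13792697): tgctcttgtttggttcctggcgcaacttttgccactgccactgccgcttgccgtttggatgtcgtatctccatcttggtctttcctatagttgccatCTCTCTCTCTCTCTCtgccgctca

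Summits were denser in near-start introns than in introns farther out. The genome holds 11.1 Mb of sequence that meets the rule (called eligible sequence below), and the 1012 summits gave 90.8 per Mb of it. In the replicates the density was 86.8, 89.4 and 92.2 per Mb, with a mean of 89.5 ± 2.69 (SD, n = 3). Introns more than 2000 and up to 10000 bp from a TSS held 56.0 summits per Mb, and introns beyond that 25.4. The near-to-farther ratio was 1.62, and 1.63 ± 0.100 over the replicates, above 1 in each of them; an exact sign-flip permutation test on its logarithm gave p = 0.25 (two-sided), the smallest p that 3 replicates allow. Sequence within 500 bp of a TSS, exons there included, was denser still, at 181 per Mb. Intergenic sequence more than 500 bp and up to 10 kb out held 43.2. Exon sequence more than 500 bp from any TSS held 9.78, and the assembled arms as a whole 55.5. These class densities were added after the near-start density had been seen.

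Within the window the density fell with distance from the TSS. It was 107 per Mb at 501 to 750 bp, then 103, 97.4, 84.7, 70.7 and 71.4 in the following bins of 250 bp. Over the replicates the nearest bin had 109 ± 9.26 per Mb and the farthest 69.2 ± 3.95 (SD, n = 3), and these values did not overlap: the lowest replicate of the nearest bin was at 103 and the highest of the farthest at 73.4. The last 2 bins differed by less than the spread between replicates.

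**Figure D1:**
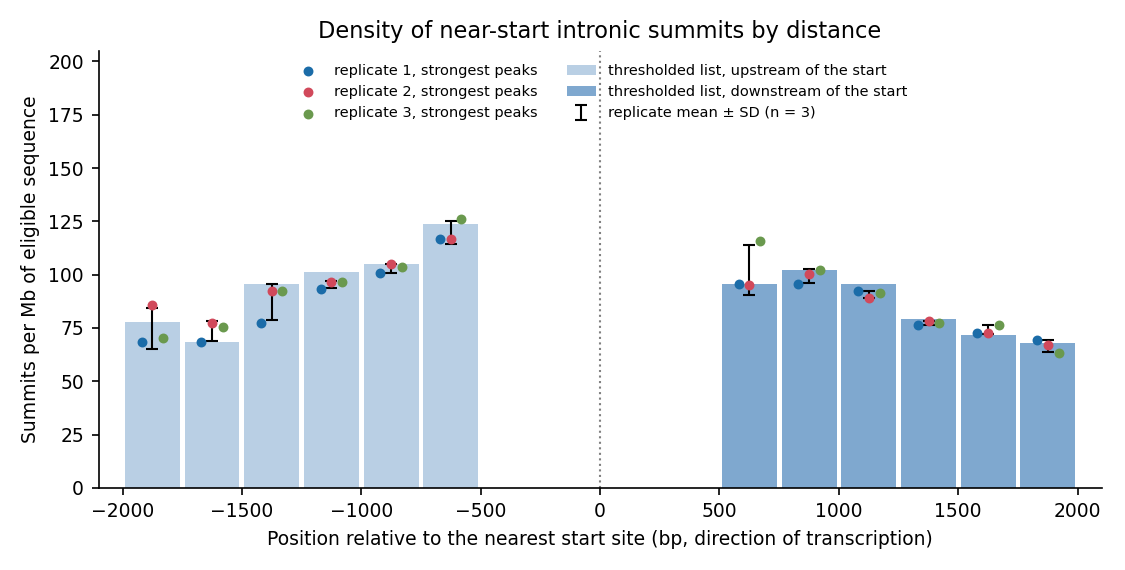
Near-start intronic summits per Mb of eligible sequence in 250 bp bins, by position relative to the nearest start site and its direction of transcription. Bars are the thresholded list, points the 3 replicates' strongest peaks, and error bars the replicate mean ± SD; on both sides the bins nearest to the start are higher than the bins at 1501 to 2000 bp.

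The summits leaned slightly to the upstream side of the start. Of the 1012 summits, 625 (61.8%) lay downstream of the nearest TSS, in the direction of its transcription, against 64.6% of the eligible bases. The replicates gave 63.1%, 61.4% and 62.7%, each below the share of bases, by 2.21 percentage points ± 0.913 (SD, n = 3; exact sign-flip permutation p = 0.25, the smallest possible). Per Mb this was 86.8 downstream and 98.1 upstream. The lean was uneven: at 501 to 750 bp the density was 124 upstream and 95.8 downstream. At 1501 to 1750 bp it went the other way, with 68.2 upstream and 71.9 downstream. Downstream, the bins up to 1250 bp had 95.8, 102 and 95.4 per Mb, so the fall with distance began farther out on that side.

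First introns carried most of the summits. The share in a first intron was 82.4%, against 64.1% of the eligible bases, and the replicates gave 82.3%, 81.7% and 82.4%. The difference from the bases was 18.03 percentage points ± 0.358 (SD, n = 3; exact sign-flip permutation p = 0.25, the smallest possible). That is 117 summits per Mb in first introns and 44.5 in later ones.

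Density also differed by intron length. Introns up to 500 bp long made up 12.8% of the eligible bases and held 18 summits, or 12.6 per Mb, whereas introns of 2001 to 5000 bp held 123 per Mb and introns over 20000 bp held 77.7. First introns were denser than later ones within each length range: 61.0 against 8.59 per Mb in introns up to 1000 bp, 133 against 62.5 in introns from there up to 5000 bp, and 116 against 64.4 in longer ones. The length ranges were set after the densities by intron order had been seen. Over the replicates the 3 first-intron values were 61.0 ± 6.46, 135 ± 6.81 and 110 ± 3.62, each above the later-intron values of 8.59 ± 1.89, 65.6 ± 2.07 and 63.1 ± 2.53 (SD, n = 3) with no overlap. The median summit lay in an intron of 5274 bp, and the median eligible base in one of 4598 bp.

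**Figure D2:**
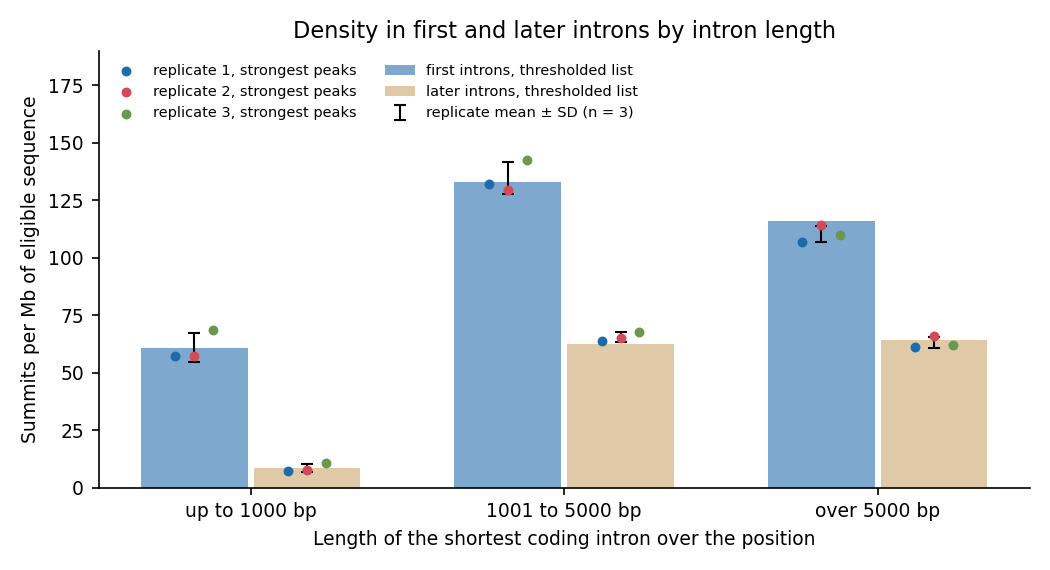
Near-start intronic summits per Mb of eligible sequence in first and later introns, by the length of the shortest coding intron over the position. Bars are the thresholded list, points the replicates' strongest peaks, and error bars the replicate mean ± SD; in every length range all 3 replicates are higher in first introns.

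The median distance from a near-start summit to the nearest other summit of any class was 1426 bp, and 337 (33.3%) had one within 1000 bp. Per Mb of eligible sequence, 2R held 103 summits, 2L 93.1, 3L 90.1, X 88.2 and 3R 84.6. Over the replicates 2R had 97.8 ± 6.93 and 3R 86.98 ± 3.796 (SD, n = 3), and the lowest value of 2R, 90.8, was just above the highest of 3R, 89.7. The arms were not tested against each other. The small chromosome 4 held 4 summits, or 33.3 per Mb, and 49.98, 33.3 and 58.3 in the replicates.

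The start site next to a summit was usually one of the host gene's own. In 553 cases (54.6%, 95% Wilson interval 51.6% to 57.7%) the nearest TSS began a host transcript that ran over the summit. In another 257 (25.4%) it was an alternative start of the host gene with the summit upstream of it, so that the sequence is intronic for a longer transcript only. A noncoding gene alone had the nearest start in 112 cases (11.1%) and another coding gene in 90 (8.89%). Over the replicates the 4 shares were 55.4% ± 1.11, 25.7% ± 0.898, 9.83% ± 0.452 and 9.12% ± 0.0944 (SD, n = 3). The eligible bases were not split by kind of start, so whether these shares differ from those of the bases was not tested.

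The nearest start site itself was often bound. It carried a summit within 500 bp for 424 of the 1012 (41.9%, 95% Wilson interval 38.9% to 44.96%), and 42.0% ± 1.70 over the replicates (SD, n = 3). Over all eligible bases the corresponding share was 21.7%, and of all 23309 start sites 20.1% had a summit. Intronic summits 2 to 10 kb out had a bound nearest start in 39.4% of cases, 2.64 percentage points ± 1.60 below the near-start summits over the replicates; all 3 were below, and the exact sign-flip permutation test gave p = 0.25, the smallest possible. The share was 51.5% where the host's own start lay ahead of the summit and 34.2% where the summit was upstream of an alternative start. It was 23.2% next to noncoding starts and 27.8% next to other coding genes. No share of eligible bases is given for each kind of start. Counting every start of the host, 721 (71.2%) had a summit at one or more of them. No reference share is given for this count, and a gene with many starts has more places for a summit.

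Where both were bound, the intronic summit was the stronger in 195 of the 424 pairs (46.0%), with a median log2 ratio of intron to promoter of -0.07. Over the replicates the intron was stronger in 46.6% ± 1.85 of pairs and the median log2 ratio was -0.08 ± 0.05 (SD, n = 3).

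The authors' signal value, the peak caller's own score for each peak, had a median of 332 against 339 for the other thresholded summits, a log2 ratio of -0.03. Over the replicates the log2 ratio was 0.01 ± 0.03 (SD, n = 3), and the exact sign-flip permutation p was 0.75 (two-sided). Summits within 500 bp of a TSS had a median of 364 and intronic summits 2 to 10 kb out 319. The spread among the near-start summits was large, from 217 to 19197; 61 of them (6.03%) were above 1000, as were 5.78% of the whole list, and 5 were among the 25 strongest summits of the genome.

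For 609 of the 1012 (60.2%, 95% Wilson interval 57.1% to 63.2%), the strongest peaks of each of the 3 replicates covered the summit, against 60.6% of all thresholded peaks. The replicate lists went into the threshold, so this is no independent check of the peaks. A further 292 were found in 2 replicates, 102 in 1 and 9 in none. With any rank in the replicate lists allowed, 93.8% were found in all 3. Across the 964 to 975 summits found in both replicates of a pair, the rank correlation of signal (Spearman's rho) averaged 0.687 ± 0.0164 (SD over the 3 pairs). Pearson's r of log2 signal averaged 0.800 ± 0.0127. These correlations run across summits that share the same libraries and are not independent replicates.

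Among the 30000 peaks that the authors called on the pooled replicates, 4081 summits met the rule, and 1012 of them (24.8%, 95% Wilson interval 23.5% to 26.1%) were in the thresholded list, against 24.8% of the whole pooled list. The share was 41.2% within 500 bp of a TSS and 18.5% in introns 2 to 10 kb out.

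The strongest near-start intronic summit lay in CG8547 (FBgn0033919, 2R from 14261206 to 14267919, minus strand), in its first intron at 2R 14265747. It was 1750 bp downstream of the start and ranked 3 in the genome with a signal of 19197. Relative signal, meaning signal divided by the median of the same list, was 52.3, 53.7 and 52.9 in replicates 1, 2 and 3, where it also ranked 3. A second summit in the same intron, 652 bp from the start at 2R 14266845, ranked 58, with 7.22, 7.05 and 7.80 times the median. Both were high in all 3 replicates, and the promoter of CG8547 carried a summit too.

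Next came CG13894 itself (FBgn0035157, 3L from 693083 to 699144, minus strand), the gene whose product carries the tag. The summit at 3L 697894, in the first intron 1250 bp downstream of the start, ranked 4 with a signal of 14590. It stood at 39.7, 40.6 and 39.8 times the median in replicates 1, 2 and 3. The peak that held it ran from 695224 to 705922 across the whole start region, while the median peak of the near-start summits was 338 bp wide. Whether the transgene that the line carries adds to the signal at this gene was not tested. The gene with 20 kb around it held 2 of the 1012 summits.

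klar (FBgn0001316, 3L from 434083 to 540614, minus strand) encodes Klarsicht, which ties nuclei and lipid droplets to microtubule motors. Its summit at 3L 511019 ranked 7, with 20.6, 20.02 and 22.1 times the median. The nearest start, 1722 bp away, was that of a noncoding gene, lncRNA:CR46002, and it carried no summit. klar held 3 near-start summits in all, the others far weaker, at 258 and 246 in the thresholded list.

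CG11050 (FBgn0031836, 2L from 6611011 to 6617117, plus strand) held the summit of rank 14, at 2L 6612703, with 14.97, 15.04 and 16.5 times the median. Unlike the others among the 25 strongest, it lay in an intron of only 140 bp. Like the Trl summit it was not in a first intron, and its 121 bp window above has the lowest GC content of the printed ones. The peak around it, from 6612383 to 6613024, is wider than the intron, so neighbouring exons lie under the same peak.

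ush (FBgn0003963, 2L from 476220 to 540560, plus strand) encodes U-shaped, a cofactor that binds GATA factors. The summit at 2L 481069 ranked 15 with 16.1, 13.96 and 14.4 times the median. It lay in the first intron of ush, but the nearest start was that of cbt, a neighbouring zinc-finger gene, 1381 bp away, and that start was bound.

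The remaining genes among the 25 strongest had lower but repeatable signals. CG9663 stood at 10.9, 9.68 and 10.9 times the median, Lk6, a kinase of the translation initiation factor eIF4E, at 9.87, 9.35 and 10.1 times, and CG32772 at 8.95, 9.31 and 9.26 times. Trl had a summit 1538 bp inside its own gene, in a later intron, at 9.65, 8.69 and 8.02 times the median. Each of these was in the strongest peaks of all 3 replicates.

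CG2991, CG10631 and Gdh, which encodes glutamate dehydrogenase, had mean relative signals of 8.11 ± 0.258, 7.85 ± 0.568 and 7.52 ± 0.362 (SD, n = 3). chif, needed for chorion gene amplification and here overlapping Hyls1, had 6.93 ± 0.956 and CHES-1-like, a forkhead factor, 6.90 ± 1.01; in both, replicate 3 was the highest. Peritrophin-A, which encodes a chitin-binding protein, had 6.86 ± 0.450, CG3328 6.72 ± 0.162, hebe 6.59 ± 0.815 and kay, the fly Fos gene, 6.52 ± 0.256. CG9837, CG3726 and norpA, which encodes the phospholipase C of phototransduction, had 6.13 ± 0.449, 6.07 ± 0.177 and 5.80 ± 0.583.

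HmgZ and HmgD, overlapping genes of high-mobility-group chromatin proteins, shared a pair of strong summits. The one at 2R 21703399 had a mean relative signal of 6.003 ± 0.582 and the one at 2R 21706118 5.31 ± 0.242 (SD, n = 3). Neither summit can be given to one of the genes alone. The summit in the adaptor gene 14-3-3zeta, also among the 25 strongest, had 5.25 ± 0.575.

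**Figure D3:**
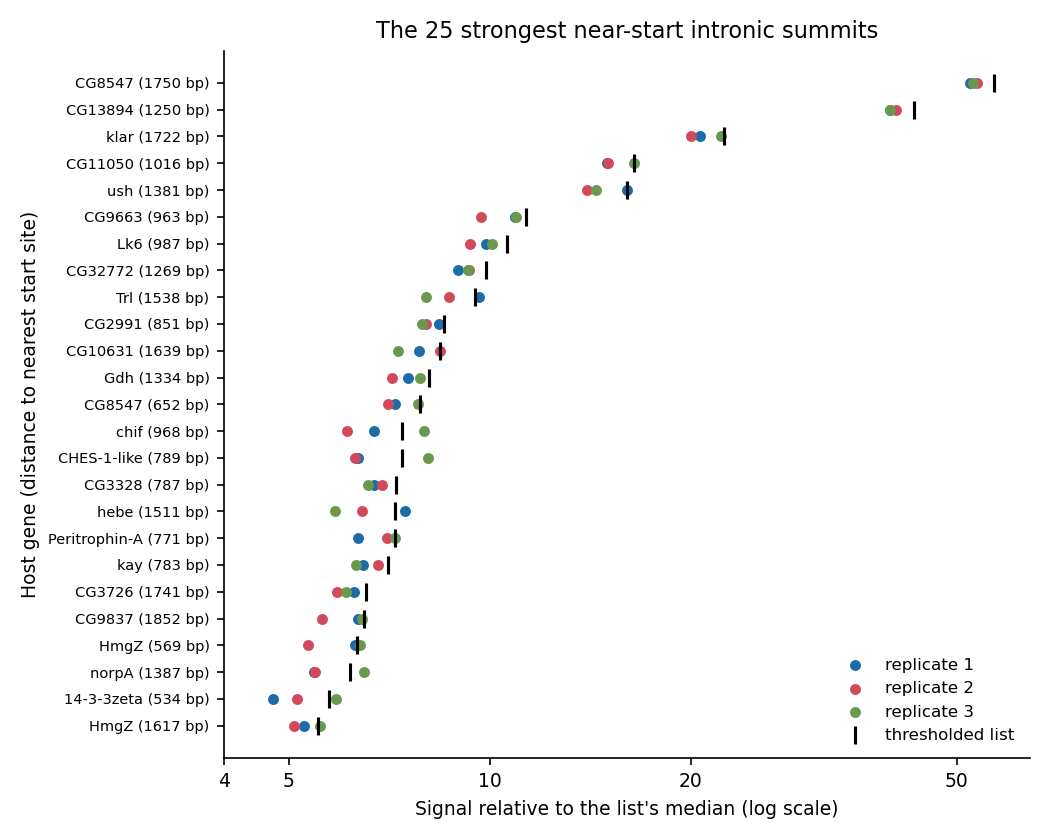
Signal of the 25 strongest near-start intronic summits relative to the list's median (log axis), in the 3 replicates' strongest peaks (points) and in the thresholded list (bars), labelled by host gene and distance to the nearest start. The stronger summit of CG8547 and that of CG13894 stand apart at 39.7 to 53.7 times the median in every replicate, and the second CG8547 summit is at 7.05 to 7.80.

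Most host genes held 1 near-start summit. The 1012 lay in 776 coding genes, of which 570 had 1, 145 had 2 and 61 had 3 or more; 72 summits lay in more than 1 gene. Among the 9009 coding genes with any eligible sequence, 8.61% held one, and 539 of the 776 hosts also held one in the lists of all 3 replicates.

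shn, which encodes the zinc-finger protein Schnurri of Dpp signalling, had the most, with 7 near-start summits in 13.1 kb of eligible sequence. Replicates 1, 2 and 3 held 7, 6 and 6 there. Its strongest, at 2R 11184538, ranked 324 in the genome with a signal of 1176, and its weakest ranked 6759. Tlk, the gene of Tousled-like kinase, had 6 in 17.7 kb, and 5, 8 and 8 in the replicates, with ranks from 283 to 6215.

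The next genes had 5 each. mam, whose product Mastermind is a coactivator of Notch, had all 5 in the strongest peaks of all 3 replicates, as did NFAT, a Rel-family transcription factor gene. CG14434, CG1677, CG32264, goe, l(3)neo38, sick, tou and the overlapping HmgD and HmgZ also had 5. Eligible sequence per gene ran from 4.97 kb in l(3)neo38 to 26.6 kb in sick, so the genes had unequal room for summits.

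The EGF receptor pathway was among the lists with most hosts. Of its 22 genes with eligible sequence, 8 (36.4%, 95% Wilson interval 19.7% to 57.0%) held one, at 253 per Mb against 91.6 per Mb for all coding genes, and the replicates gave 31.8% ± 4.55 (SD, n = 3). These gene lists were drawn up with results of these data known and overlap each other, so their counts are descriptions. Among the ligands were spi, with a signal of 226 near its own start, and Krn, whose summit of 377 lay in sequence shared with Ndfip. ru, a rhomboid protease gene that acts on ligands, had 222, in sequence shared with Ptp61F. The receptor gene Egfr had 3, the strongest at 381, and the adaptor gene drk 1, at 484. The highest value was at sty, the gene of the inhibitor Sprouty. It had 4, the strongest at 1150 with 3.15 ± 0.0264 times the median (SD, n = 3). Mkp3, a phosphatase of the MAP kinase, had 514 for the stronger of its pair, or 1.45 ± 0.176 times the median. pnt, the ETS factor gene at the end of the pathway, was at much the same level, with 497 and 1.44 ± 0.157 times.

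Transcription factors of the stress response had 6 of 15 genes (40.0%, 19.8% to 64.3%), at 221 per Mb, with 48.9% ± 3.85 over the replicates. kay led with 4 near-start summits, the strongest at 2382. CrebB, a cAMP-responsive factor, had 822, REPTOR, a factor held back by TORC1, 559, and cnc, the fly Nrf2, 366; crc, the fly ATF4, had 365 and sima, the hypoxia factor, 310.

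Genes of actin and the cytoskeleton had 9 of 25 (95% Wilson interval 20.2% to 55.5%), against 8.61% of all coding genes, with 44.0% in every replicate. They have much eligible sequence, and per Mb the excess was smaller, 134 summits against 91.6. After klar, Msp300, a nuclear anchor of muscle, had 1211 and Dhc64C, the dynein heavy chain, 657. Rho1, ena, Moe, alpha-Spec, dia and beta-Spec ran from 613 down to 233.

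The Trithorax and SWI/SNF list, of chromatin activators, had 5 of 17 genes (29.4%, 13.3% to 53.1%) and the most summits per Mb, 357, from 11 summits in 0.0308 Mb. Trl was at 3214, tara had 3, the strongest at 1703 and 4.62 ± 0.275 times the median, and kis had 4, the strongest at 565. osa and brm, SWI/SNF subunits, had 292 and 236, the latter in an intron of the overlapping CG17029. The Polycomb group, of repressors, had 3 of 19 (15.8%, at 182 per Mb), with ph-p at 759, Su(z)2 at 422 and jing at 289.

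In the lists that follow, shares of genes stand against 8.61% of all coding genes and densities against 91.6 per Mb. Several of these densities rest on few summits in little eligible sequence. JAK-STAT had 3 of 9 (33.3%, at 164 per Mb), with the transcription factor gene Stat92E at 579, its feedback inhibitor Socs36E at 549 and the phosphatase gene Ptp61F at 364. FGF and JNK signalling had 5 of 16 (31.2%, at 151 per Mb): kay, then egr, a TNF ligand, at 614, puc, the JNK phosphatase, at 457, ths, an FGF ligand, at 451 and msn, a kinase, at 337. BMP and activin signalling had 4 of 20 (20%, at 156 per Mb), among them shn and sog, an extracellular inhibitor, at 403. The ecdysone response had 6 of 21 (28.6%) but 105 per Mb, near the level of all coding genes. The receptor gene EcR was at 849, its coactivator tai at 932, Kr-h1 at 1792, in sequence shared with CG45075, and crol, Eip75B and br at 428, 382 and 372, br in sequence shared with Mur2B.

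Neuronal genes had 6 of 26 (23.1%) at 93.1 per Mb, also near the 91.6 per Mb of all coding genes. brat was at 915, elav, in sequence shared with arg, at 774 and the sodium channel gene para at 709. Trachea and epithelium had 5 of 18 (27.8%) at 76.5 per Mb, with dlg1 at 553. Toll and Imd had 3 of 14 (21.4%, at 208 per Mb from 4 summits), with Dif at 461 and dl at 332. Insulin and TORC1 had 3 of 18 (16.7%, at 147 per Mb), with InR at 640, and Notch 2 of 14 (14.3%, at 148 per Mb), mam and neur. Hedgehog and Wnt genes had 2 of 27 (7.41%, at 43.6 per Mb), fz2 at 282 and sgg at 261. The insulator list had 1 of 13 (7.69%), mod(mdg4) at 525, and its 143 per Mb is 1 summit in 0.00701 Mb. The shares of the Hedgehog and Wnt list and of the insulator list were close to that of all coding genes.

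Segmentation and homeotic genes had 1 of 31 (3.23%, 0.572% to 16.2%), which was cnc, at 14.1 per Mb. Muscle and mesoderm had 0 of 19 genes, which allows a share of up to 15.8%, and Hippo 0 of 13, which allows 23.1%. The genes of cytoplasmic ribosomal proteins had 0 of 25, with an upper limit of 13.3%, and their eligible sequence came to 0.00527 Mb. These 0s are for the thresholded list, and in the replicate lists Hippo genes held a summit in 5.13% ± 4.44 (SD, n = 3).

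**Figure D4:**
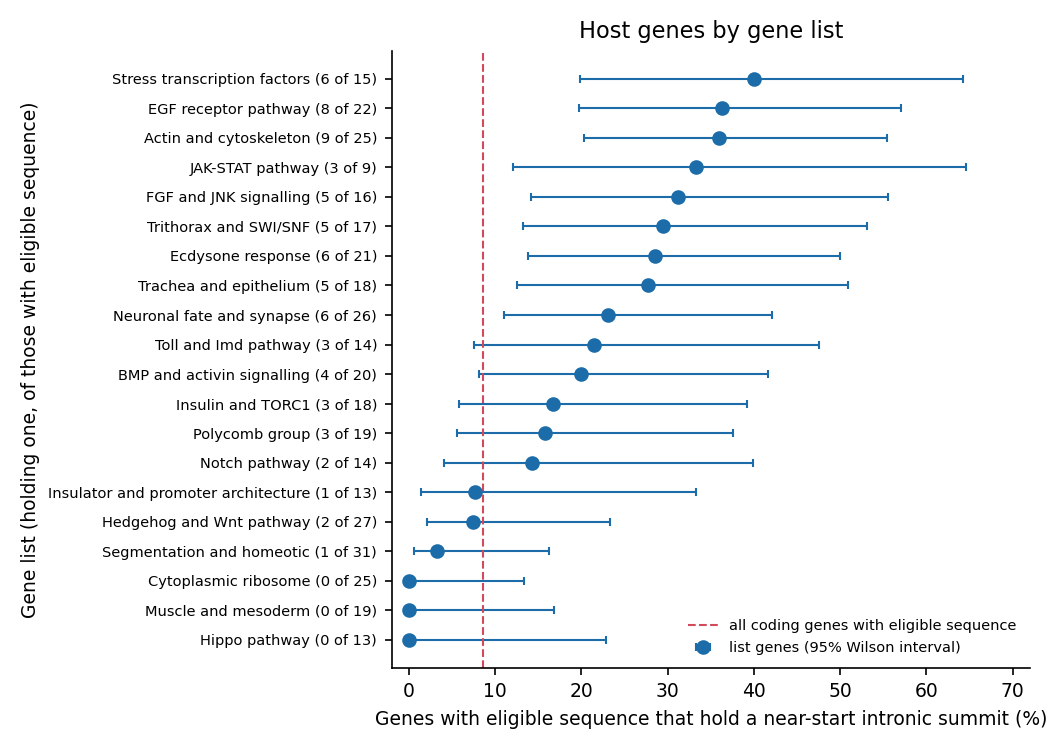
Share of each list's genes with eligible sequence that held a near-start intronic summit, with 95% Wilson intervals; the dashed line is the 8.61% of all coding genes. The stress, EGF receptor and actin lists are highest, and the ribosome, muscle and Hippo lists are at 0.

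Short DNA words under the summits were compared with the summits' own flanks. In windows reaching 100 bp to each side of the summit, 22 motifs were looked for on both strands, some nested in each other (GAGAG in its longer form, CGATA in the DRE, the DNA replication-related element TATCGATA). The flanks were windows centred 1000 bp to each side, which can reach a promoter or an exon, and all 55772 windows tiled over the eligible sequence served as a second reference. Windows had 42.1% GC, flanks 41.3% and tiled windows 39.7%.

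GAGAG, the core bound by GAGA factor, was in 31.7% of the windows (95% Wilson interval 28.9% to 34.7%), 25.05% of flanks and 21.0% of tiled windows. It was in 29.1% of promoter windows and 26.9% of windows at intronic summits 2 to 10 kb out. Over the replicates it was above the flanks in all 3, by 4.97 percentage points ± 0.637 (SD, n = 3; exact sign-flip permutation p = 0.25, the smallest possible). The excess was smaller, 2.78 points, in the stronger 50% of the list and 2.37 points in windows of 100 bp. Against intronic summits 2 to 10 kb out the excess was 4.85 points, and 2.50 to 3.14 points when a replicate was left out and only peaks found in both others were kept. Of the 253 strongest summits 28.9% had it, and of the 253 weakest 37.2%. By 50 bp bin, GAGAG was lower in both bins that touch the summit, at 8.40% and 9.49%, than beside them. It reached 12.4% at 50 to 99 bp on the plus-strand side and 11.3% at 101 to 150 bp on the other. Bins from 750 to 1000 bp away ran from 6.62% to 8.70%, so most of the excess lay beside the summit. GAGAG is followed further than the other motifs and was picked for that after the values of all 22 were seen. The longer repeat GAGAGAGA was in 3.46% of windows and 3.26% of flanks.

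TAATTA, the core of homeodomain sites, had the largest shortfall in percentage points among the 22, in 8.70% of windows, 14.7% of flanks and 15.3% of tiled windows. Its share was as low at intronic summits 2 to 10 kb out, 8.33%, and at intergenic summits within 10 kb, 7.40%. It was below the flanks in each replicate, by 4.61 points ± 0.273 (SD, n = 3; exact sign-flip permutation p = 0.25). AACCGGTT, a Grainyhead site, was rare but in 13 windows (1.28%) against 0.0988% of flanks and 0.364% of tiled windows. The Wilson interval of this share, 0.752% to 2.19%, overlapped those at other summits. Intergenic summits within 10 kb had 0.865% (0.456% to 1.64%). Intronic summits 2 to 10 kb out had 0.530% (0.257% to 1.09%) and promoters 0.463% (0.281% to 0.762%). Each replicate was above its intronic summits 2 to 10 kb out, with means of 1.17% ± 0.120 and 0.643% ± 0.125 (SD, n = 3). GATAAG was in 13.3% of windows and 10.4% of flanks, and CATATG in 8.70% and 6.62%.

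Elements frequent at promoters were rarer here than there, and the rule leaves out all summits within 500 bp of a TSS. The DRE was in 0.692% of windows, 0.840% of flanks and 6.73% of promoter windows, and GGTCACACT, a core promoter word, in 0.0988%, 0.543% and 3.27%. In tiled windows the DRE had 0.421% and at intronic summits 2 to 10 kb out 0.151%, both below the near-start share, which rests on 7 windows. GGTCACACT had 0.0914% and 0% there. CAGGTAG, the site of Zelda, was in 0.988% of windows and of flanks. The AP-1 word TGACTCA was in 2.47% against 2.12%, and the ETS word CCGGAA in 4.05% against 4.20%. No match says only that these letters were not in the window.

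A search over all words of 7 letters gave leading words that in part overlap each other. ACAGTGG shares letters with CAGTGGG, and CTCGCTC with TCTCGCT. The words were not grouped by a method. Words were ranked by their share in the 589 windows on 2L, 2R and X over the tiled windows there, with 1 percentage point added to both, among words in at least 15 windows. The other 423 windows, on 3L, 3R and 4, are given beside them, but they are no independent check. Words of other lengths and these overlapping words had been seen over all arms before the length, the minimum and the split were set. ACAGTGG led, in 9.68% of the windows on the ranked arms, 3.14% of flanks and 2.70% of tiled windows. On the other arms it was in 5.20% (95% Wilson interval 3.46% to 7.75%), 2.96% and 2.43%. CTCGCTC came second, in 7.30%, 2.97% and 2.32%, and in 8.27%, 2.84% and 2.14% on the other arms. CGCGCAC, also among the leading words on the ranked arms with 3.74%, was in 0.946% on the others, below its flanks at 1.42%.

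Over all arms ACAGTGG was in 79 windows (7.81%), against 4.23% at promoters and 3.63% at intronic summits 2 to 10 kb out. It was in 11.5% of the 253 strongest near-start summits and in 6.32%, 5.53% and 7.91% of the following sets of 253, in order of signal. In 50 bp bins it was highest beside the summit, with 3.16% at 50 to 99 bp on the plus-strand side and 2.47% at 51 to 100 bp on the other, and lower, 1.78%, in both bins that touch the summit. CTCGCTC was in 7.71% of windows, 4.78% at promoters and 3.63% at intronic summits farther out. Over the replicates ACAGTGG exceeded its flanks by 4.43 points ± 0.235 and CTCGCTC by 3.52 ± 0.748 (SD, n = 3), each in all 3. These all-arm values include the arms that chose the words, with 57 of the 79 ACAGTGG windows, and are no independent support. On 3L, 3R and 4 alone, ACAGTGG was in 5.20% of windows, 3.26% at promoters and 2.56% at intronic summits farther out. For CTCGCTC the same shares were 8.27%, 4.64% and 3.25%. For ACAGTGG the excess in the thresholded list was 4.74 points, and 1.28 in windows of 100 bp.

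**Figure D5:**
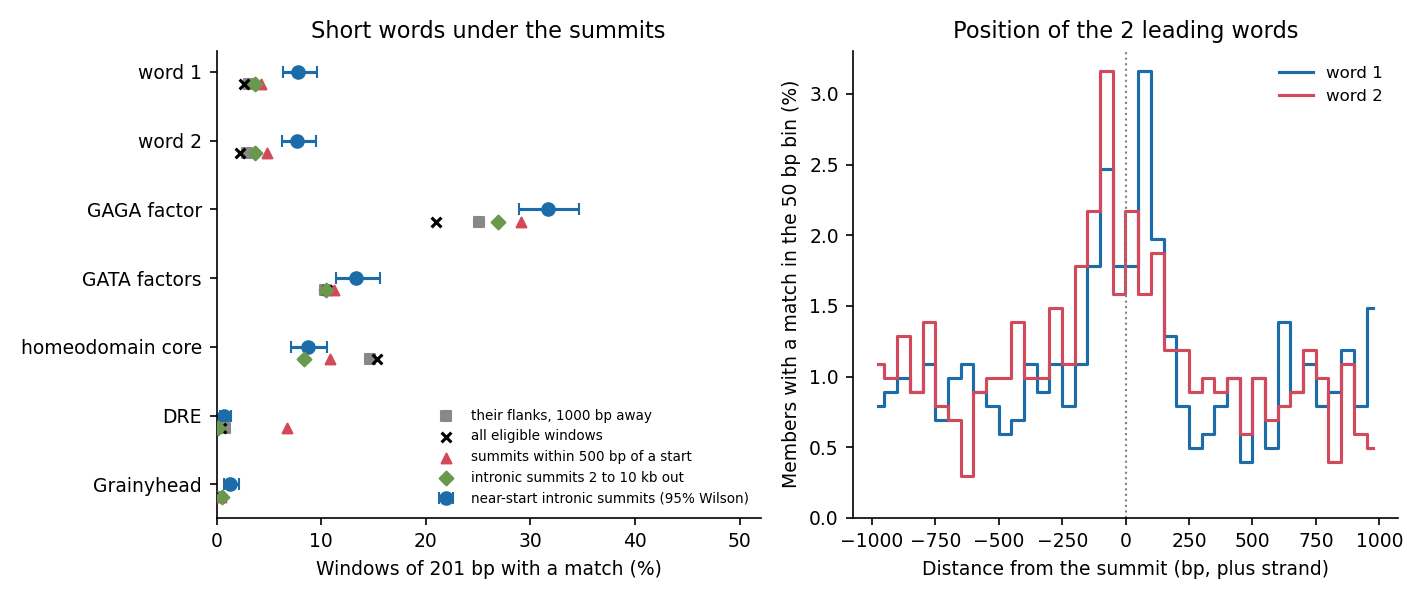
Left, share of windows (100 bp to each side) with a match to 7 words or motifs at near-start intronic summits (with 95% Wilson intervals), their flanks, all eligible windows, promoter summits and intronic summits farther out; word 1 and word 2 are the leading 7-letter words. Right, share of the summits with either word in each 50 bp bin around the summit, highest within 150 bp of it. Both panels cover all arms, including those on which word 1 and word 2 were chosen.

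The summits just inside the 500 bp limit, both at 501 bp, were in LIMK1 with a signal of 312 and l(3)neo38 with 254. Just outside were Flo2, at 500 bp with 483, and Kank, at 497 bp with 891. The summits just inside 2000 bp were in kis, at 2000 bp with 258, and Chd64, at 1997 bp with 251, and those just outside were Skel, at 2004 bp with 304, and Osi24, at 2005 bp with 371.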

How the data were processed

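Anti-GFP ChIP-seq peak lists from 3 biological replicates of 1 group were analysed. Per the labels' file notes, the authors called peaks on each replicate and on the pooled replicates against a control alignment, on dm6, and derived the thresholded list from them; which aligner, peak caller and threshold value they used is not stated there. The deposited signal of a peak is the caller's score, whose scale differs between lists, so it was used only within a list, as ranks or relative to the list's median. The deposited −log10 q-value was not used further. The summit is the deposited offset from the peak start, set to the last base in 5 thresholded peaks where it fell past the end. Replicates 2 and 3 shared 219 peaks of equal start and end, the other pairs 0, and no peak was also equal in signal, so all 3 were kept as separate.

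TSSs (23309), exons and coding genes came from Ensembl release 115 without pseudogenes and transposons, and sequence from Release 6; 99.8% of 30593 start codons read ATG. Replicate values use each replicate's 7434 strongest peaks. Densities divide summits by the bases that meet the same rule. Intervals are 95% Wilson intervals and cover counting of summits, genes or windows only; depth is unknown. Tests are exact sign-flip permutations over the 3 replicates (two-sided, smallest p 0.25), so none could pass 0.05. Scripts (Python 3.11.15, pandas 2.3.3, scipy 1.17.1, statsmodels 0.14.6) were tested on simulated data.

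The members, 20 gene lists, 22 motifs and tests were chosen with earlier results of these data known. GAGAG was carried through the alternatives after all motif values were seen. Genes are named where they hold one of the 25 strongest summits, hold 3 or more, are among the 3 strongest of a list, or lie next to a distance limit; other members of the lists are named outside that rule. Alternatives were a narrower window, coding TSSs only, the stronger 50% of the list, the peak middle, 1 summit per region, leaving out the CG13894 locus or a replicate, and other motif windows and flanks.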

Additional observations from a re-analysis of the deposited data

How the results depend on the processing

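Of 127 values of 12 results under alternatives, 4 changed sign and 23 moved beyond their limit, which was 1.5 times for counts and the replicate spread or interval for other values without a test. For results with a test only the direction could be followed, since no test could pass 0.05, so the other 100 include large changes in size. The number of summits was 787 with distances up to 1500 bp and 698 to 711 with a replicate left out. The GAGAG excess over flanks ran from 2.37 to 8.45 points and that of ACAGTGG from 1.28 to 5.76. In the stronger 50% of the list the summits numbered 486 (43.6 per Mb), 92.4% were found in all replicates, 45.1% had a bound nearest start and the GAGAG excess over introns farther out was 1.89 points. With distances up to 1500 bp the density was 98.6 per Mb and the share of pooled-list summits above the threshold 26.5%. With 1 summit per region the density was 85.3 per Mb and 40.2% had a bound nearest start, and with coding start sites only 44.5%. Found in all replicates were 39.0% when 50% of both peaks had to overlap and 93.8% at any rank. Keeping only thresholded peaks found in both other replicates, each replicate left out in turn, gave 62.6 to 63.8 per Mb, because fewer peaks remain, bound nearest starts of 33.5% to 35.3%, and GAGAG excesses over introns farther out of 2.50 to 3.14 points. As means of the other 2 replicate lists these excesses were 2.13 to 3.65 points, with 3.03 without replicate 1. The log2 ratio of median signal was -0.0022 to 0.0197 in the first way, with 0.0197 and 0.0148 without replicates 2 and 3, and 0.0066 and 0.0172 without them in the second, so its sign changed. Where no cause is given, the cause was not tested. The first-intron excess ran from 16.2 to 20.4 points over all alternatives. No paired analysis was possible because there is 1 group. Depth limits cannot be given, as no peak list holds counts.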
